A study of Mus musculus with 2 samples.

Results

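The genes described are 40 mouse genes of the mitotic spindle and of chromosome segregation, listed by name, out of 32285 genes in the tables. All 40 were present in both libraries. They fall into 9 roles, from the cyclins that open mitosis to the proteins that pinch the daughter cells apart. Their UMIs (unique molecular identifiers, each counting 1 captured transcript) were read in melanocytes, taken as cells with at least 1 UMI of Dct, fewer than 3 UMIs of Krt10 and Krt14 together, under 5% mitochondrial UMIs and a minimum depth.

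Cells of the melanocyte lineage were sorted for GFP from Dct-rtTA; tetO-H2B-GFP mice of mixed background and either sex that had received doxycycline for 4 days. In these mice the Dct promoter drives the transactivator, so GFP marks cells in which that promoter was active. The early-anagen library (Activated_McSC) held melanocyte stem cells from skin taken 4 days after depilation at 8 weeks of age. The bulb library (Differentiated_Mc) held pigment-making melanocytes of the hair bulb at anagen VI in mice 5 weeks old. Each library pooled the cells of 4 mice, so each condition was 1 sample, the comparison had no replicate check, and no test between conditions was possible. The first library was made with version 3 and the second with version 2 of the 3′ kit. Stage, age, depilation, the tissue taken, the way it was dissociated and the kit changed together and cannot be told apart.

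To divide, a cell copies its DNA in S phase and then, in G2 and mitosis, builds a bipolar spindle, attaches each chromosome to it through the kinetochore and separates the sister chromatids. Cyclin A and cyclin B with the kinase CDK1 drive entry into mitosis. The spindle checkpoint holds the anaphase-promoting complex, a ubiquitin ligase, in check until all kinetochores are attached. Most of these genes are transcribed only as cells approach mitosis, so their transcripts are widely read as a sign of cycling cells. Melanocyte stem cells divide at the start of hair growth, whereas melanocytes of the bulb make pigment and are thought to divide little.

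Of the cells that passed the depth and mitochondrial limits, the rule kept 2785 of 3464 in early anagen and 3734 of 3774 in the bulb. The medians were 24528 UMIs per early-anagen cell and 14286.5 per bulb cell, with 75718468 and 55883067 UMIs in all. The 40 genes held 202183 UMIs in early anagen and 19064 in the bulb. All 8 melanocyte markers had a UMI in more than 50% of cells in both libraries. For Dct this follows from the rule. The rule also held Krt10 and Krt14, which are among the epidermal markers summed next, under 3 UMIs together. The 8 epidermal keratinocyte markers summed to 27.9 CPM (UMI sums scaled to a common total) in early anagen and 49.2 CPM in the bulb, against 24639 and 67431 CPM for the melanocyte markers. Krt10, a keratin that melanocytes should lack, had a UMI in 29.6% of the selected early-anagen cells and 21.7% of the selected bulb cells. Whether these UMIs came from background RNA or from mixed droplets was not tested. The libraries shared 1 cell barcode, and 0 of those selected.

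The limit on keratin UMIs removed far more cells from early anagen than from the bulb, and it bears on every share given for early anagen. It set aside 653 early-anagen cells with Dct, of which 81.2% (77.9 to 84.1) had at least 8 of the 40 genes detected at a common depth of 10000 UMIs, against 28.0% (26.3 to 29.7) of the cells kept. In the largest class of them, 392 cells with 5 to 19 keratin UMIs and a median of 12203.5 UMIs, 93.4% (90.4 to 95.6) passed that mark. Their UMIs for the 40 genes were spread narrowly, from 8 at the 5th percentile to 34.45 at the 95th, with a variance 8.59 times the mean. In selected cells without a keratin UMI the same percentiles were 0 and 94.6, and the variance was 66.2 times the mean. Melanocyte markers stood at 23165 CPM in that class and at 25373 CPM in cells without keratin, and epidermal markers at 1236 and 11.3 CPM. The part of mixed or free RNA in these cells was not tested. Shares without the keratin limit are given for the whole library and for the Oca2 comparisons.

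The promoters were searched for 2 short sequences. One is the CHR element, TTTGAA, known from cell cycle genes that are silenced outside G2 and mitosis. The other is the CCAAT box, CCAAT, often found upstream of it. Windows of 300 bases, from 250 before to 50 after the transcription start, were matched by symbol in the RefSeq table on GRCm38.p6 for 33 of the 40 genes. Entries were not used here for Ccna2, Cdc25c, Aurkb, Incenp, Smc4, Tpx2 and Kif20a. Read on both strands, TTTGAA was in the window of 24 of the 33 genes (72.7%), against 20.2% of the 27025 genes in the table. CCAAT was in 23 (69.7%), against 41.1%. Both were in 20 (60.6%), against 7.97%. The windows of Pttg1, Birc5, Mad2l1, Nuf2, Knstrn and Nusap1 held neither. For Pttg1, Kif2c and Kif4 the window lay wholly inside the annotated gene, so bases before the annotated start were not searched. The Pttg1 window spanned chr11:43425932-43426231, and the gene, on the minus strand, is annotated as starting at 43426251. Whether the bases before that start hold either sequence was thus not examined. Parts of the windows are shown for 4 genes that hold both, with different roles, and for Pttg1, which went the other way in the bulb. They run from 120 bases before to 30 after the start used by the RefSeq table. The 2 sequences are in capitals on either strand (ATTGG and TTCAAA are their reverse forms).
Cdk1, chr10:69352883-69353032, minus strand: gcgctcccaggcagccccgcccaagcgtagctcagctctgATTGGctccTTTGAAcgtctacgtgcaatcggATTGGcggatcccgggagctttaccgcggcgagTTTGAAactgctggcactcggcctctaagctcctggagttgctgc
Cdc20, chr4:118437314-118437463, minus strand: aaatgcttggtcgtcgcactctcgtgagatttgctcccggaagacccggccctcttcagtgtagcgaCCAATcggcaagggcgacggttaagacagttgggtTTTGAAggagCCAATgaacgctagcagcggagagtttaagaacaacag
Ccnb2, chr9:70421525-70421674, minus strand: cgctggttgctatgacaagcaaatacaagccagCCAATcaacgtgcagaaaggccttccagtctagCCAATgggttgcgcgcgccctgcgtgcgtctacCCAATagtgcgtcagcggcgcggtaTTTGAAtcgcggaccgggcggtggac
Kif11, chr19:37376262-37376411, plus strand: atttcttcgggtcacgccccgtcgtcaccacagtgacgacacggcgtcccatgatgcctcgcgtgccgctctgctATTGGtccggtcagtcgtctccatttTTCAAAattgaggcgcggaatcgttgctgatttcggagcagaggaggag
Pttg1, chr11:43425952-43426101, minus strand: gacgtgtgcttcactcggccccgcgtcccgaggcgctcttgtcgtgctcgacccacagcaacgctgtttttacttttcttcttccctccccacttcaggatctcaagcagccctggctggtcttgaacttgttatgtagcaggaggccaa
A match is a run of letters and not a shown binding site. The 20 genes with both sequences had a median bulb-to-early-anagen log2 ratio of -3.64, and the 6 genes with neither had -3.22, with ranges that overlapped (-5.65 to -1.52 and -3.71 to 0.84).

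In bulb melanocytes 39 of the 40 genes were lower than in early anagen, all of them at least 2-fold and beyond counting error, and 1, Pttg1, was higher. None of the 40 was as much as 2-fold higher when scaled to CPM. With edgeR TMM factors Pttg1 was more than 2-fold higher (log2 1.16, 1.10 to 1.21). Of all 14932 genes with at least 10 UMIs, 38.7% were at least 2-fold lower, 14.8% at least 2-fold higher and 54.7% lower beyond counting error, so a lower level in the bulb was common among all genes. Their median log2 ratio was -3.35 (median bounds -3.62 to -3.15), against -0.43 over the genes with UMIs in both. Together the 40 genes fell from 2670 to 341 CPM, and the 39 without Pttg1 from 2604 to 223 CPM. The ratio was above 8-fold for 29 genes and above 16-fold for 13. Shares of all genes past these 2 marks were not counted. With edgeR TMM factors fewer of the 40 passed 8-fold, Cdk1 for example being at log2 -2.73. Only Aurka, Ccnb1, Mad2l1 and a few others stayed within 8-fold (10 genes). All intervals cover counting error only, and PCR and cell sampling add to it.

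**Figure D1:**
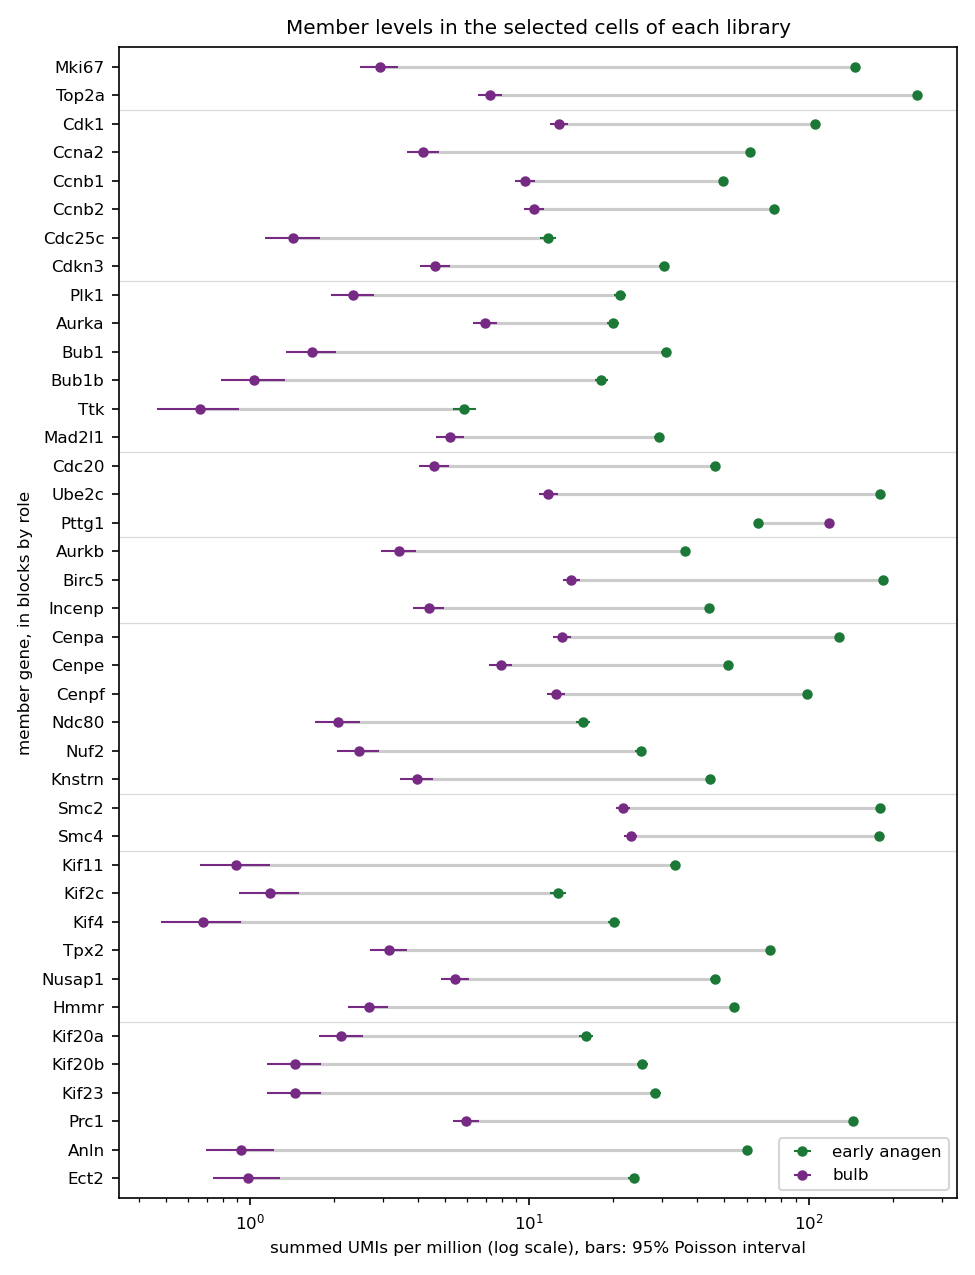
Summed CPM (log scale) of each of the 40 genes in selected early-anagen (green) and bulb (purple) cells, in blocks by role, with 95% Poisson intervals. The bulb point lies to the left of the early-anagen point for 39 genes and to the right for Pttg1 alone (65.8 and 118 CPM).

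The first block, Mki67, whose protein is the Ki-67 proliferation mark, and Top2a, the topoisomerase that untangles sister DNA, had the largest summed ratio of the 9 roles, with a log2 of -5.27 (-5.39 to -5.15). Mki67 was at 147 CPM in early anagen and 2.92 CPM in the bulb, a log2 ratio of -5.65 (-5.88 to -5.43). Top2a was at 245 and 7.27 CPM, or -5.07 (-5.22 to -4.93). At 10000 UMIs per cell Mki67 was detected in 26.1% of cells in early anagen and in 1.37% in the bulb, and Top2a in 28.7% and 1.67%.

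Cyclins, CDK1 and the phosphatases that act on it were lower by a smaller factor, with a summed log2 ratio of -2.96 (-3.02 to -2.90). Cdk1 was at 105 CPM in early anagen and 12.8 CPM in the bulb, and Ccna2, cyclin A, at 61.7 and 4.17 CPM. The B-type cyclins that carry cells into mitosis differed less, Ccnb1 from 49.6 to 9.66 CPM (log2 -2.36, -2.49 to -2.23) and Ccnb2 from 75.1 to 10.4 CPM (log2 -2.85, -2.98 to -2.73). Cdc25c, the phosphatase that activates CDK1, was rare in both, at 11.7 and 1.43 CPM. Cdkn3, a phosphatase that acts on cyclin-dependent kinases, was at 30.4 and 4.60 CPM.

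Mitotic kinases and checkpoint proteins summed to a log2 ratio of -2.81 (-2.90 to -2.71), but spread widely. Aurka, a kinase of the centrosome and spindle poles, had the smallest ratio of the 39 lower genes, from 19.97 to 6.96 CPM (log2 -1.52, -1.68 to -1.36). Plk1, a kinase active from mitotic entry to cytokinesis, went from 21.2 to 2.34 CPM. The checkpoint kinase Bub1 (log2 -4.22) and its partner Bub1b (log2 -4.12) were over 16-fold lower, while Mad2l1, which binds the checkpoint's target, was 5.61-fold lower (29.2 and 5.21 CPM). Ttk, the kinase that starts checkpoint signalling, was the least counted member in both libraries, at 5.86 and 0.66 CPM.

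The 3 genes of anaphase entry divided. Cdc20, the activator of the anaphase-promoting complex, was at 46.1 CPM in early anagen and 4.58 CPM in the bulb, and Ube2c, the ubiquitin-conjugating enzyme that works with the complex, at 181 and 11.7 CPM. Pttg1, securin, the inhibitor of separase that the complex destroys at anaphase, was at 65.8 CPM in early anagen and 118 CPM in the bulb, a log2 ratio of 0.84 (0.79 to 0.90). Of all genes, 31.6% were higher in the bulb beyond counting error.

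Pttg1 also differed from the others in how it was spread over cells. In bulb cells thinned to 10000 UMIs it was detected in 68.1% of cells at a mean of 1.21 UMIs with a variance 1.11 times the mean, close to the value of 1 that random counting gives around an even level. Of 1581 bulb cells with exactly 1 member detected, 1243 had Pttg1. Only 1.73% of its bulb UMIs lay in cells with 8 or more of the other members, and 42.6% of its early-anagen UMIs. The other genes were uneven, such as Ube2c with a variance 12.3 times its mean in the bulb and 11.9 times in early anagen. In bulb cells with at least 8 other members Pttg1 stood at 95.8 CPM and in the rest at 122 CPM, so its transcripts in the bulb did not mark the cells that carried the others.

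The chromosomal passenger complex, which corrects wrong attachments and guides cytokinesis, had a summed log2 ratio of -3.60 (-3.68 to -3.51). Its kinase Aurkb was at 36.2 CPM in early anagen and 3.42 CPM in the bulb, Birc5, survivin, at 185 and 14.2 CPM, and the scaffold Incenp at 44.0 and 4.37 CPM. All 3 differed by about the same factor, 10.1 to 13.1-fold.

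Centromere and kinetochore genes had a summed log2 ratio of -3.11 (-3.17 to -3.05). Cenpa, the centromeric histone variant, was at 128 CPM in early anagen and 13.1 CPM in the bulb. Ndc80 and Nuf2, partners in the complex that holds microtubules, were at 15.6 and 25.1 CPM in early anagen and at 2.08 and 2.45 CPM in the bulb. The kinetochore motor Cenpe (51.6 and 7.91 CPM) and the large kinetochore protein Cenpf (98.7 and 12.5 CPM) were under 8-fold lower, and in the bulb they were detected in 6.17% and 7.42% of cells, more often than any member but Pttg1 and the condensin genes. Knstrn, a small spindle and kinetochore protein, was at 44.3 and 3.95 CPM.

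The condensin subunits Smc2 and Smc4, which compact chromosomes and also act outside mitosis, were the most widely detected after Pttg1 in the bulb. Smc2 was at 181 CPM in early anagen and 21.7 CPM in the bulb, with a UMI in 44.0% and 14.4% of cells. Smc4 was at 179 and 23.1 CPM, with a UMI in 52.4% and 17.2% of cells. Of the 40 genes, 9 have another gene annotated on the same strand within their bounds, such as the microRNA genes Mir15b and Mir16-2 in Smc4, and 0 of these are protein-coding. Reads in such overlaps cannot be told apart.

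Spindle motors and assembly factors (summed log2 -4.09, -4.20 to -3.99) and the genes of the central spindle and cytokinesis (-4.53, -4.64 to -4.43) had larger ratios than all roles but the first. Kif11, the motor that pushes the poles apart, was at 33.3 CPM in early anagen and 0.89 CPM in the bulb (log2 -5.22, -5.65 to -4.81). Kif4, which binds chromosome arms, was at 20.1 and 0.68 CPM, Tpx2, an activator of Aurora A, at 73.0 and 3.15 CPM, and Hmmr, a spindle pole protein, at 54.1 and 2.67 CPM. Nusap1, which bundles microtubules near chromosomes, at 46.1 and 5.44 CPM, and the microtubule-depolymerising kinesin Kif2c, at 12.7 and 1.18 CPM, differed less. Anln, anillin, a scaffold of the contractile ring, had the largest ratio of all, from 60.4 to 0.93 CPM (log2 -6.02, -6.44 to -5.63). Ect2, which switches on the contractile ring, was at 23.7 and 0.98 CPM, and Prc1, the bundler of the central spindle, at 145 and 5.96 CPM. The kinesins of the midzone, Kif20a, Kif20b and Kif23, were at 15.97, 25.4 and 28.3 CPM in early anagen and at 2.13, 1.45 and 1.45 CPM in the bulb. Processed pseudogene copies are annotated under the names of Ccnb1, Ccnb2 and Kif4, and any reads shared with them would make these 3 levels uncertain. Shared reads were not examined, and copies under other names were not searched.

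Most transcripts of these genes lay in a part of the cells. A cell was said to have the programme when at least 8 of the 40 genes had a UMI after thinning to 10000 UMIs. The name does not place a cell in mitosis. The replication genes described below summed to 2229 CPM in early-anagen cells with the programme and 697 CPM in the others. In early anagen 780 of 2785 cells did, 28.0% (26.3 to 29.7), and in the bulb 74 of 3288, 2.25% (1.77 to 2.82). The median cell had 3 members detected in early anagen and 1 in the bulb, and the maxima were 38 and 37. At least 20 members were detected in 384 early-anagen cells and 39 bulb cells, so the larger numbers of members were met in both libraries. Between 6 and 9 members, near the mark, were detected in 243 early-anagen and 33 bulb cells, and in early anagen the counts ran on without a gap, so the mark divides a range and not cell types. A depth of 10000 UMIs left out 446 shallower bulb cells. Without the keratin limit the early-anagen share was 38.1% (36.5 to 39.8), and in cells without any Krt10 or Krt14 UMI it was 24.6% (22.6 to 26.6). The bulb share moved less, to 2.33% and 2.29%. In 10 further thinning draws the shares ranged from 28.0% to 28.6% and from 2.22% to 2.37%.

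**Figure D2:**
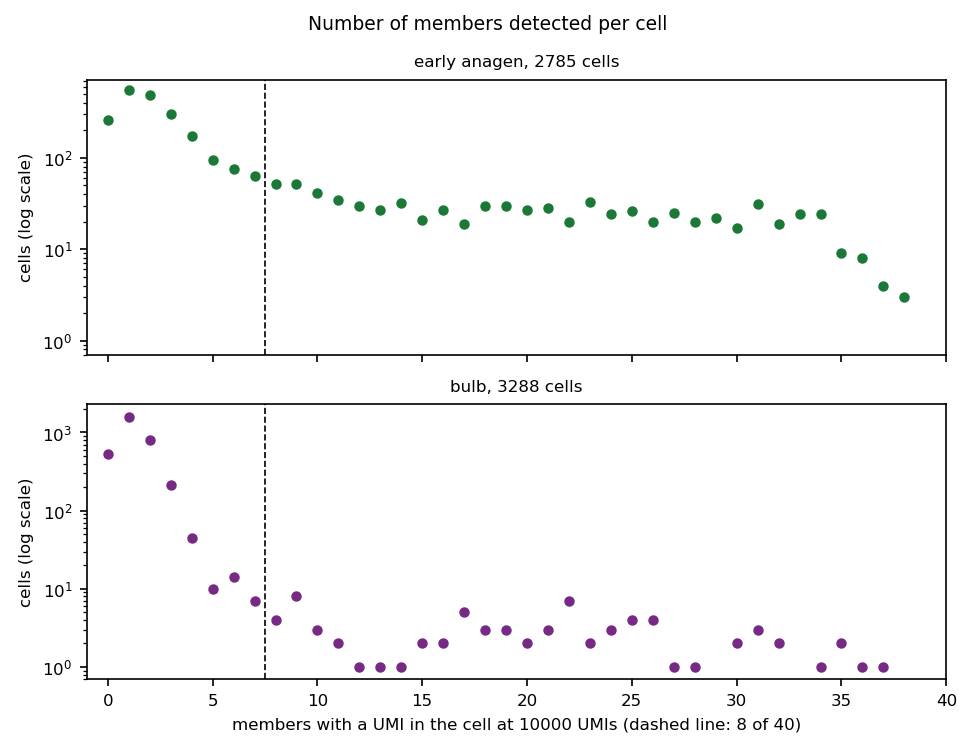
Number of selected cells (log scale) by how many of the 40 genes had a UMI at 10000 UMIs, for 2785 early-anagen cells (top) and 3288 bulb cells (bottom), with a dashed line at 8 genes. Early-anagen counts run on without a gap to 38 genes, and the bulb shows a tall peak at 1 gene and a thin tail that reaches 37.

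Cells with the programme were deeper. Before thinning they had a median of 36925 UMIs in early anagen, against 21632 in the other cells, and 19348 against 14918.5 in the bulb. By depth, 7.47% of early-anagen cells of 10000 to 15000 UMIs had the programme, 11.6% of those of 15000 to 25000 and 47.0% of those above. In the bulb the same classes had 1.33%, 2.47% and 11.3%. Doublets were not called, and their part in this was not tested. Without the 5% deepest cells the shares were 24.8% in early anagen and 1.87% in the bulb.

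In early anagen 88.3% of all UMIs of the 40 genes lay in the cells with the programme, and in the bulb 38.996%. The bulb figure was lowered by Pttg1, which had 3987 UMIs in the bulb after thinning. Of these, 1.73% lay in cells with the programme, counted by the other 39 genes. All 40 genes together had 3953 UMIs in the bulb cells with the programme. Counted for each gene by the other 39, the median share of a gene's UMIs in cells with the programme was 92.6% in early anagen, above 80% for 36 of the 40. It was lowest for Pttg1 (42.6%), Smc4 (67.6%), Smc2 (72.9%) and Knstrn (74.4%). The median in the bulb was 84.7%. There Smc4 (18.6%), Smc2 (26.7%), Cenpe (28.0%), Cenpf (30.8%), Aurka (45.5%) and Incenp (49.6%) lay mainly in other cells, where each was at 17.7 CPM or below, and so did Pttg1.

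Cells with few and with many members did not carry the same ones. Early-anagen cells were set in classes by how many of the other 39 genes were detected. With 3 to 7 others detected, Smc4 had a UMI in 48.7% of cells, Smc2 in 43.1%, Top2a in 23.7%, Cdk1 in 18.3%, Birc5 in 19.8% and Mki67 in 14.6%. In the same class Kif2c had a UMI in 0.28% of cells, Plk1 in 0.85%, Kif11 in 1.13%, Kif23 in 1.56%, Nusap1 in 1.69% and Hmmr in 2.24%. With 24 or more others detected these reached 46.8%, 64.3%, 77.7%, 67.3%, 78.0% and 87.1%. Since low-count genes such as Kif2c are missed more often, the classes compare each gene with itself. Its mean UMIs in the class of 3 to 7, as a percent of that in the class of 24 or more, were highest for Pttg1 (28.8%), Smc2 and Smc4 (both 15.6%), Knstrn (11.7%), Mad2l1 (9.86%), Ccnb2 (9.04%), Ect2 (6.28%) and Cdk1 (6.25%). They were lowest for Hmmr (1.01%), Nusap1 (0.85%), Kif11 (0.82%), Plk1 (0.73%) and Kif2c (0.41%), and Top2a stood at 4.18%. On this measure the condensins lay highest after Pttg1, and 4 of the 5 lowest genes were spindle motors and assembly factors.

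**Figure D3:**
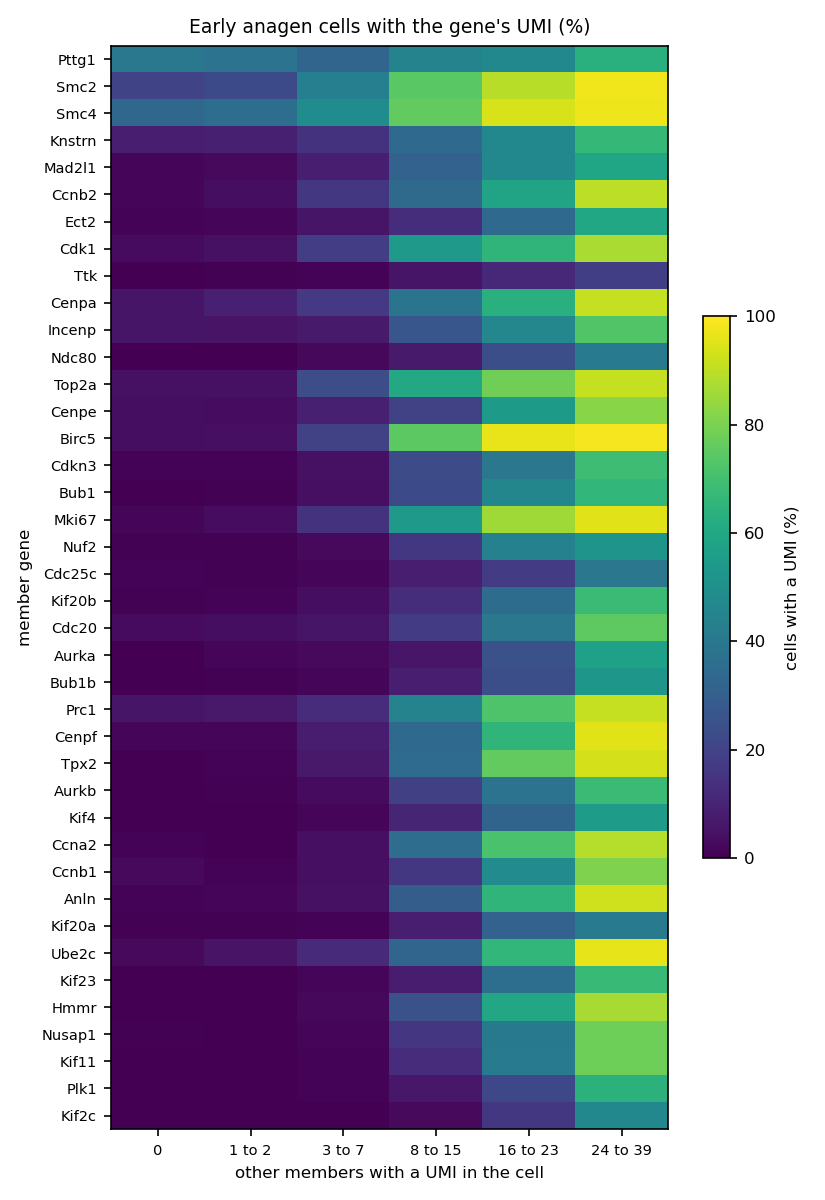
Percent of early-anagen cells with a UMI of each gene (colour, 0 to 100%), in 6 classes of cells by how many of the other members were detected, with genes ordered by their mean UMIs in the class of 3 to 7 as a share of those in the class of 24 to 39. Pttg1, Smc2 and Smc4 at the top are coloured from the left, and Hmmr, Nusap1, Kif11, Plk1 and Kif2c at the bottom only toward the right.

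Genes of DNA replication, a list of 24, peaked in the middle of this range. Their sum was 382 CPM in early-anagen cells with 0 members, 459 with 1 or 2, 1162 with 3 to 7, 2530 with 8 to 15, 2639 with 16 to 23 and 1596 CPM with 24 or more. The classes with the most spindle genes were thus not those with the most replication transcripts. Pigmentation transcripts, a list of 12 genes, went the other way as a part of a cell's UMIs. They stood at 21997 CPM at 0 members, 15482 CPM at 8 to 15 and 15551 CPM at 24 or more. Amounts per cell were not compared. Before thinning, cells with 0 members had a median of 19698 UMIs and those with 24 or more 42060. Of the 12, 11 were lower in early-anagen cells with the programme than in the others beyond counting error (median log2 -0.43), against 23.1% of all genes, and 11 also in the bulb (median log2 -0.43), against 7.92%. All 24 replication genes were higher in the cells with the programme, in early anagen (median log2 1.52, against 20.2% of all genes higher) and in the bulb (median log2 3.89, against 14.1%).

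Oca2 encodes a melanosomal transporter that is switched on late in pigment cell maturation, and its transcript was used to divide early-anagen cells. At 10000 UMIs 303 cells had an Oca2 UMI (Oca2+) and 2482 had none (Oca2-), though with so few UMIs a cell without one can still express the gene. With Oca2 present all 40 genes were lower, 37 of them beyond counting error, against 12.7% of the 12880 genes tested, and 22 at least 2-fold, against 8.12%. None was higher beyond counting error, against 14.8% of the genes tested, or at least 2-fold higher, against 4.5%. The median log2 ratio was -1.08 (-1.43 to -0.63), against 0.02 over all genes, and the sum went from 1960 to 966 CPM. The programme was found in 37 of the Oca2+ cells, 12.2% (8.75 to 16.4), and in 743 of the Oca2- cells, 29.9% (28.1 to 31.8).

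The size of this difference depended on which cells were counted as Oca2+. Before thinning, early-anagen cells with the programme had a median of 36925 UMIs and the other cells 21632. Thinning to 10000 UMIs dropped a larger part of the UMIs of deeper cells, those of Oca2 included. How much this added to the difference was not tested. In 10 further thinning draws the share with the programme in Oca2+ cells was 13.7% to 16.7%, above the first draw each time, and in Oca2- cells 29.4% to 30.3%. The median log2 ratio ranged from -1.15 to -0.67 over all 11 draws. With Oca2 read on all UMIs of a cell and the programme still at 10000 UMIs, the shares were 19.8% (16.3 to 23.8) of 454 cells and 29.6% (27.8 to 31.5) of 2331. With both Oca2 and the programme read on all UMIs they were 29.7% and 40.8%, and the median log2 ratio was -0.46. Without the keratin limit they were 28.6% (24.1 to 33.4) and 39.3% (37.6 to 41.1). In cells with no keratin UMI at all they were 11.7% and 26.0%. Oca2+ cells had the lower share under each of these settings. Among the cells set aside by the keratin limit the direction was reversed. There 73 of 82 Oca2+ cells and 457 of 571 Oca2- cells had the programme, so the larger share was in Oca2+ cells. Intervals were not computed for this split.

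In all 11 draws 25 of the 40 genes were lower beyond counting error where Oca2 was present. By their median over draws 15 were at least 2-fold lower, against 22 in the first draw, where 8.12% of 12880 genes were. Shares of all genes over the 11 draws were not counted. Kif11 had the lowest median over draws (log2 -1.37), with Bub1b and Prc1 (both -1.26), Aurkb (-1.25) and Plk1 (-1.20) next. In the first draw Prc1 was at 43.9 CPM with Oca2 and 99.8 CPM without it, Cdk1 at 33.3 and 72.9 CPM, and Top2a at 78.2 and 166 CPM. Genes with few UMIs varied most between draws, and the interval of Cdc25c (6.27 and 9.15 CPM), Kif2c (5.94 and 9.19 CPM) and Pttg1 included 0 in the first draw. Pttg1 was the 1 gene that was beyond counting error in none of the 11, at 56.8 and 65.8 CPM in the first, with a median log2 ratio of -0.03 over draws. The UMIs of these genes lie in few cells, 37 in the Oca2+ group, so the intervals understate the spread between cells.

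Early-anagen cells with the programme were compared by Oca2 in the parts of their member UMIs taken up by the roles named here. The intervals overlapped for Mki67 with Top2a, the cyclin group and the chromosomal passenger complex, which does not show equal parts. Since the Oca2+ UMIs lie in 37 cells, the intervals understate the spread between cells. The 37 Oca2+ cells had a median of 22 members and 61.7 member UMIs per 10000, and the 743 Oca2- cells a median of 19 and 58.2. Mki67 and Top2a made up 16.1% (14.6 to 17.6) and 14.6% (14.2 to 14.9) of the member UMIs. The cyclin group made up 13.7% (12.4 to 15.2) and 12.9% (12.6 to 13.2). The chromosomal passenger complex made up 8.93% (7.79 to 10.2) and 10.2% (9.96 to 10.5). All these cells were chosen for at least 8 members, so their amounts are a description. Pigmentation genes stood at 23284 CPM in the Oca2+ cells with the programme and 14922 CPM in the Oca2- ones.

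Among the selected cells the share was lower the more Oca2 UMIs a cell had, in both libraries. In early anagen it was 29.9% at 0, 16.8% (11.4 to 23.5) at 1, 8.79% (3.87 to 16.6) at 2 or 3, and 3.92% (0.48 to 13.5), 2 of 51 cells, at 4 or more. The intervals of neighbouring steps above 0 overlap. These steps rest on the first thinning draw and were not redrawn. Its early-anagen Oca2+ share (12.2%) was below those of all 10 further draws (13.7% to 16.7%). Without the keratin limit the steps were 39.3% (37.6 to 41.1), 38.96% (32.6 to 45.6), 17.5% (10.7 to 26.2) and 3.92%, so the shares at 0 and at 1 then did not differ beyond counting error. In the bulb it was 10.7% (6.35 to 16.6) at 0, 4.92% (3.55 to 6.61) at 1 to 3, 1.24% (0.68 to 2.06) at 4 to 6 and 0.17% (0.02 to 0.62), 2 of 1162 cells, at 7 or more. Pttg1 stayed between 117 and 130 CPM across the bulb steps while the other 39 genes together went from 884 to 67.3 CPM.

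**Figure D4:**
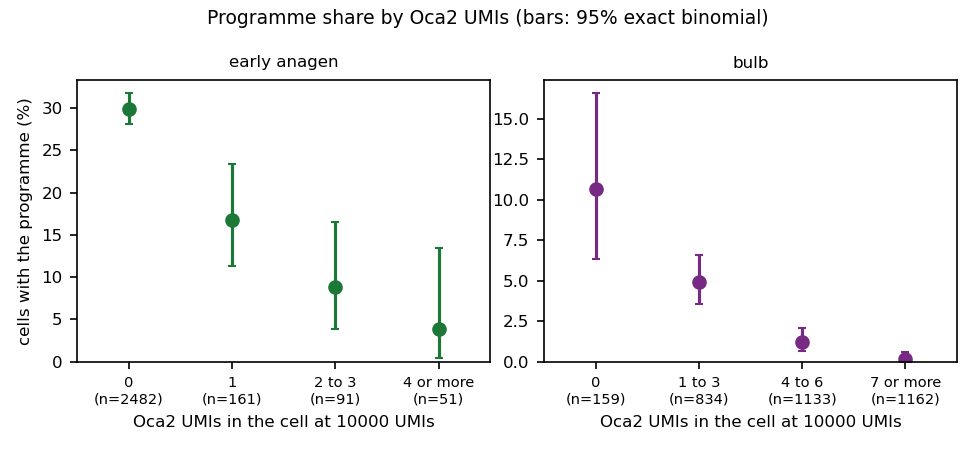
Percent of cells with the programme by the number of Oca2 UMIs in the cell at 10000 UMIs (first thinning draw), in early anagen (left) and the bulb (right), with exact 95% binomial intervals. With the keratin limit applied, the share is lower at each step in both, from 29.9% to 3.92% and from 10.7% to 0.17%, on axes of different height.

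In the bulb, where 159 cells lacked an Oca2 UMI and 3129 had one, 38 of the 40 genes were lower with Oca2 beyond counting error, against 13.8% of 11803 genes, and 38 at least 2-fold, against 9.12%. None was higher beyond counting error or at least 2-fold, against 7.14% and 7.55%. The median log2 ratio was -2.81. Top2a was at 35.2 CPM without Oca2 and 3.80 CPM with it, Ube2c at 73.6 and 5.62 CPM, and Nusap1 at 40.3 and 2.33 CPM. Pttg1 was at 130 and 121 CPM, within counting error, as was Kif2c. Epidermal markers stood at 669 CPM in the Oca2- cells and 19.1 CPM in the Oca2+ cells, hair matrix and shaft markers at 92.5 and 6.20 CPM, and fibroblast and dermal papilla markers at 12.6 and 0.415 CPM. With the cells of more than 2 epidermal marker UMIs left out, those markers were at 18.6 and 17.3 CPM, and the programme was in 16 of 145 Oca2- cells, 11.0% (6.44 to 17.3), and in 1.82% of Oca2+ cells. In cells without a single UMI of the epidermal, hair or fibroblast markers it was in 11 of 109 Oca2- cells, 10.1% (5.15 to 17.3), and in 48 of 2480 Oca2+ cells, 1.94% (1.43 to 2.56).

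The few bulb cells with the programme had its genes in other proportions than early-anagen cells with it. Chosen alike for at least 8 members, they had 53.4 and 58.4 member UMIs per 10000. Compared gene by gene, each judged by the other 39, 13 genes were higher in the bulb cells, 15 lower and 12 within counting error, with a median log2 ratio of -0.01. Of 11270 genes, 21.1% were higher and 22.6% lower in the same cells. Ccnb1 was highest, at 299 CPM in the bulb and 107 CPM in early anagen (log2 1.48, 1.26 to 1.70). Aurka (115 and 46.1 CPM), Ccnb2 (322 and 176 CPM), Nuf2, Nusap1 and Cdk1 (378 and 221 CPM) followed. Anln was lowest, at 31.1 and 143 CPM (log2 -2.20, -2.86 to -1.61), with Mki67 (93.2 and 335 CPM), Kif11 (31.1 and 74.3 CPM), Top2a (226 and 536 CPM) and Kif4 next. The cyclin and CDK1 group made up 24.6% (23.3 to 26.0) of the member UMIs in these bulb cells and 12.9% in Oca2- early-anagen cells, and Mki67 and Top2a 5.97% (5.25 to 6.75) and 14.6%. Replication genes were at 3361 CPM in the bulb cells and 2229 CPM in the early-anagen cells, and in the remaining bulb cells at 327 CPM. The 6 fibroblast and dermal papilla markers summed to 28.4 CPM in the 74 bulb cells with the programme and 0.373 CPM in the other bulb cells, and their part in these values was not tested. The kits differed between the libraries, and the part of the kit in these proportions was not tested.

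**Figure D5:**
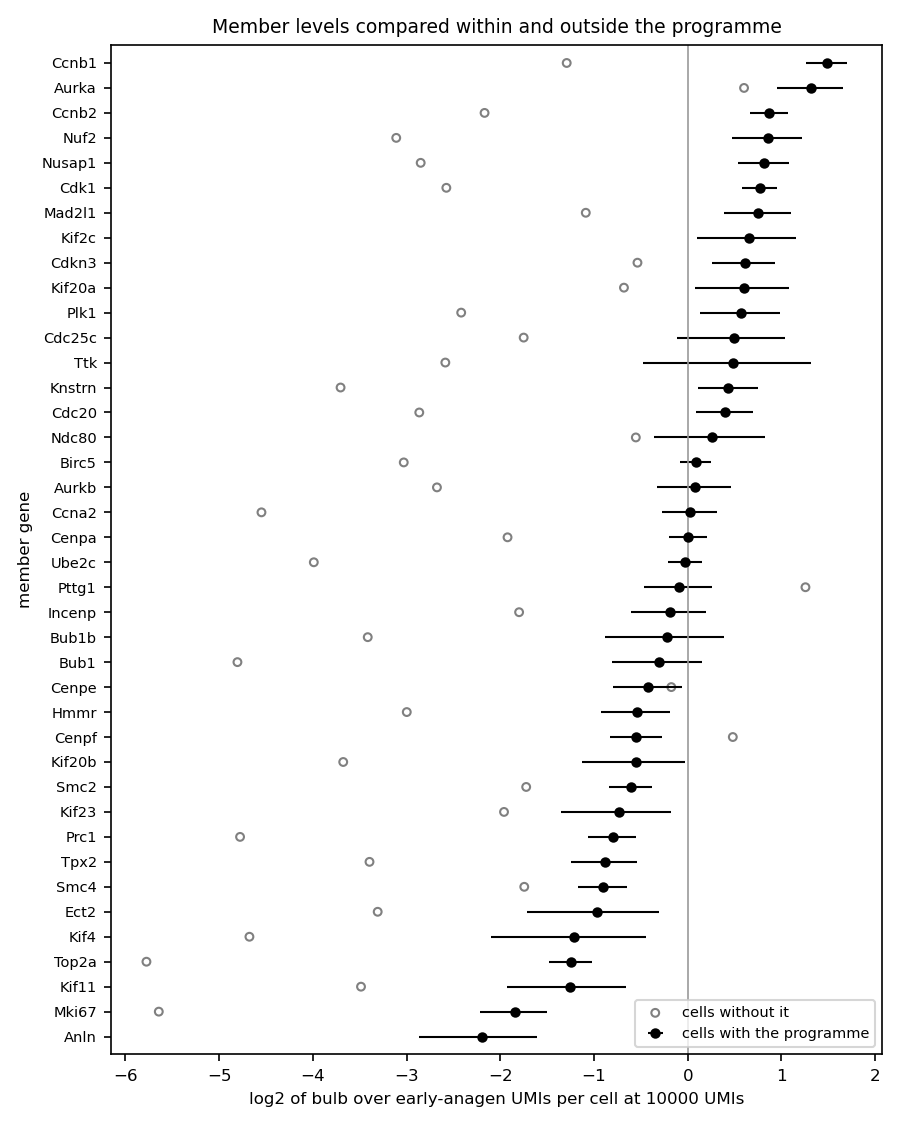
The log2 ratio of bulb over early-anagen UMIs for each gene at 10000 UMIs, in cells with at least 8 of the other 39 genes (black, with exact 95% intervals) and in the other cells (open circles), with genes ordered by the first. Black points run from Anln at -2.20 to Ccnb1 at 1.48 on both sides of 0, open circles lie mostly to the left, and Anln and Kif2c have none because they had 0 UMIs in the other bulb cells.

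Outside the programme the bulb was lower for 33 genes, higher for 3 and within counting error for 4, with a median log2 ratio of -2.63 when the 2 genes with 0 bulb UMIs are set at 3 counts. Of 13357 genes, 50.9% were lower and 31.7% higher in these cells, with a median log2 ratio of -0.36. Cells below the mark included 708 early-anagen cells with 3 to 7 members detected. Replication genes stood at 1162 CPM in those, against 382 CPM in early-anagen cells with 0 members. The part of such cells in these ratios was not tested. Mki67 was at 9.33 CPM in the other early-anagen cells and 0.19 CPM in the other bulb cells, and Top2a at 17.0 and 0.31 CPM. Anln had 0 UMIs there, against 2.53 CPM in early anagen. Pttg1 was higher in the bulb (51.0 and 122 CPM), and so were, by small amounts, Aurka (2.09 and 3.17 CPM, log2 0.60, 0.07 to 1.16) and Cenpf (5.91 and 8.24 CPM, log2 0.48, 0.16 to 0.81).

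A wider list of 80 other genes of chromosome segregation had 75 lower in the bulb beyond counting error, 3 higher and 2 within. Their median log2 ratio was -3.003. Of all 14932 genes tested, 54.7% were lower and 31.6% higher beyond counting error. Aspm, a spindle pole protein (16.5 and 0.39 CPM, log2 -5.39), the motor Kif15 (27.7 and 0.79 CPM, log2 -5.14) and Cep55, a protein of the midbody (15.4 and 0.52 CPM, log2 -4.89), were lowest among those of at least 10 CPM. The 3 that were higher in the bulb, as Pttg1 was, were Zwint (35.2 and 112 CPM, log2 1.67, 1.61 to 1.74), Zw10 (24.8 and 76.5 CPM, log2 1.63, 1.55 to 1.70) and Cenpt (6.44 and 11.3 CPM, log2 0.81, 0.64 to 0.99), all of them kinetochore genes. In Oca2+ early-anagen cells 54 of the 80 were lower beyond counting error and 1, Zw10 (log2 0.77), was higher. Of all 12880 genes tested there, 12.7% were lower and 14.8% higher. The 24 replication genes were all lower in the bulb beyond counting error (median log2 -2.21), against the same 54.7% of all genes.

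The genes outside the 40 whose transcripts most closely followed the number of members detected per early-anagen cell, over 2785 cells of 1 library and among 7416 genes, were Hmgb2 (Pearson r 0.85), Cdca8 (0.83), Cdca3 (0.82), Racgap1 (0.79), Cks2 (0.77), Stmn1 (0.76), H2afz (0.75), Pbk (0.75), Pclaf (0.75) and Ube2s (0.69). Cdca8, a subunit of the passenger complex, and Racgap1, of the central spindle, are on the wider list, as are Cdca3 and Cks2. They were lower in the bulb as well, from Hmgb2 at 678 and 41.8 CPM (log2 -4.02) to Ube2s at 487 and 354 CPM (log2 -0.46). These cells share their library and were thinned to 1 depth, and the correlation is a description.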

How the data were processed

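Droplet 3′ libraries of GFP-sorted cells were processed by the authors with Cell Ranger 6.0.1 on mm10/GRCm38, and the deposited matrices hold raw UMI counts per gene and barcode, each barcode with at least 500 UMIs. Here cells with more than 10000 (early anagen) or 5000 (bulb) UMIs, under 5% mitochondrial UMIs, at least 1 Dct UMI and under 3 Krt10 and Krt14 UMIs were kept. Counts were summed per group and scaled to CPM, with exact Poisson intervals, ratios of sums had exact conditional 95% intervals, and shares had Clopper-Pearson intervals. With 1 library per condition there was no test and no p-value. For shares, cells were thinned without replacement to 10000 UMIs, in 1 draw and 10 further ones added after seeing the data. Genes with 0 UMIs were bounded at 3 counts. Doublets were not called. TMM factors came from edgeR 4.0.16 (R 4.3.3), and all else used Python 3.11.15, numpy 2.4.6 and scipy 1.17.1. The thinning and the intervals were tested on simulated data. With Poisson sums the intervals covered the true ratio for 94% to 98% of genes. In the Oca2 split, a true log2 ratio of -2 or of 1 was called in the right direction for 68% of 50 genes. Most members vary more between cells than Poisson counts (Ube2c by 11.9 times its mean in early anagen), so this coverage need not hold for them. Members and lists were chosen with earlier results of these data known. Named outside genes were the 3 lowest and 3 highest of the wider list and the 10 most correlated. The telogen library was not analysed here.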

Additional observations from a re-analysis of the deposited data

Results flagged for a closer look

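Some early-anagen cells with Dct were set aside for 3 or more Krt10 and Krt14 UMIs, and the selected cells leave them out. Of these, 81.2% (530 of 653) had the programme. The flag asked only for a share above that of 3 cells, a low mark, so passing it says little. Epidermal markers stood at 3250 CPM in the set-aside cells, and the part of mixed or free RNA in them was not tested. The median set-aside cell had 13 members detected, against 3 in the selected cells.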

How the results depend on the processing

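No paired analysis was possible because each condition had 1 library, and for the same reason no replicate could be left out. The count of genes lower in the bulb and the count lower in Oca2+ cells stayed within 1.5 times under every alternative run. The bulb-to-early-anagen median log2 ratio was -3.03 with TMM factors, which shift all genes by 0.31, and -2.63 in cells without the programme, where Aurka (0.60) and Cenpf (0.48) turned to higher in the bulb. That last setting, the missing keratin limit, the extra draws, the Oca2 split without keratin UMIs and that with only Oca2 read on all UMIs were added after seeing the data. The share with the programme in early anagen was 42.7% with at least 4 members, 21.5% with at least 12, 21.4% at 5000 UMIs, 39.03% with all UMIs, 24.6% without keratin UMIs, 24.8% without the 5% deepest cells and 38.1% without the keratin limit. In the bulb it was 4.56%, 1.73% and 1.69% under the first 3. In Oca2+ cells it was 23.4% with at least 4 members, 29.7% with all UMIs, 19.8% with only Oca2 read on all UMIs, 28.6% without the keratin limit, 7.04% for cells of at least 2 Oca2 UMIs and 16.7% in the highest draw. In Oca2- cells it was 45.0% with at least 4 members, 22.97% with at least 12, 40.8% with all UMIs, 39.3% without the keratin limit and 26.0% without keratin UMIs. The median Oca2+ over Oca2- log2 ratio was -0.46 with all UMIs and -1.43 for at least 2 Oca2 UMIs. Of single genes, 141 values for bulb over early anagen and 61 for the Oca2 split moved beyond their interval, beside the 2 that reversed. Moves with the member minimum and the depth follow from how the share is built, and the cause of the others was not tested. Members under 10 CPM and groups under 100 cells are limited by counting.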
